A study of Mus musculus with 16 samples.

Results

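The genes described are 10 members of the axis formed by the peroxisome proliferator-activated receptors (PPARs), their retinoid X receptor (RXR) partners and the PGC-1 coactivators. They were taken by gene name from a count table of 49315 mouse genes, and all 10 were found: Ppara, Ppard, Pparg, Rxra, Rxrb, Rxrg, Ppargc1a, Ppargc1b, Sirt1 and Sirt3. All 10 passed the filter on low counts and were among the 17469 genes tested.

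RNA was sequenced from mouse hippocampus in 16 libraries, which fall into 4 groups of 4. The groups are WT on Standard Diet, kcna1 KO on Standard Diet, WT on Ketogenic Diet and kcna1 KO on Ketogenic Diet. Kcna1 encodes a subunit of a voltage-gated potassium channel, and mice that lack it have spontaneous seizures. A ketogenic diet is rich in fat and poor in carbohydrate, so that the liver makes ketone bodies. The strain, the allele, the age and sex of the animals, the composition of the diet and its duration are not given in the sources used here. The labels do not state that each library is a separate animal, so p-values measure only the spread between libraries.

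PPARs are nuclear receptors that bind fatty acids and, paired with an RXR, act at DNA elements near genes of fatty acid oxidation, ketone body synthesis and lipid storage. PGC-1 alpha and PGC-1 beta, encoded by Ppargc1a and Ppargc1b, are coactivators of these receptors and of factors that control mitochondrial genes. SIRT1, a nuclear NAD-dependent deacetylase, removes acetyl groups from PGC-1 alpha, and SIRT3 is the main deacetylase of the mitochondrial matrix. In the brain, PGC-1 alpha is prominent in inhibitory interneurons, including those that contain parvalbumin.

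Levels are given as CPM, a gene's counts scaled to a common library total after trimmed-mean (TMM) normalization. Differences are log2 fold changes from edgeR's quasi-likelihood test, each with its standard error (SE), and a gene was called at a Benjamini-Hochberg adjusted p under 0.05 over all 17469 genes.

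The libraries held 13440230 to 22309504 counts. Kcna1 stood at 107 to 130 CPM in the 8 wild-type libraries and at 43.4 to 47.2 CPM in 7 of the knockout libraries. The remaining library, labelled kcna1 KO on Standard Diet (KC888LL), had 82.0 CPM, between the genotypes. The Y-linked gene Ddx3y was above 10 CPM in 4 libraries (KC890RL, KC872RL, KC873RR and KC846L), none of them in the knockout group on Ketogenic Diet. Gfap, the astrocyte filament gene, ranged from 288 to 2327 CPM over the knockout libraries and from 294 to 390 CPM over the wild-type ones. Defining markers of neurons (5 genes) summed to 4841 to 5954 CPM over all libraries.

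No member of the axis passed the test in any comparison. Of the 10 genes, 0 were called for knockout against wild type on Standard Diet, where 0.00572% of all tested genes were called. Under Ketogenic Diet, 0 members and 0.0172% of all genes were called for the same genotypes. For the diet, 0 members were called in the knockout, against 1.16% of all genes, and 0 in the wild type, against 0.0114%. The interaction, which asks whether the diet effect differs between genotypes, gave 0 members and 0% of all genes.

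The count stayed at 0 at an unadjusted p under 0.05, a limit passed by 14.3%, 9.22%, 16.9% and 5.46% of all genes in those 4 comparisons and by 7.48% in the interaction. DESeq2's Wald test also called 0 members in each comparison, against 177, 33, 677 and 12 of all genes in those 4 comparisons and 7 in the interaction. No member had groups whose CPM did not overlap, which 5.86%, 3.98%, 6.39% and 4.88% of all genes had. Since so few of all genes were called, a count of 0 among 10 is near the background and says nothing particular about the axis.

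**Figure D1:**
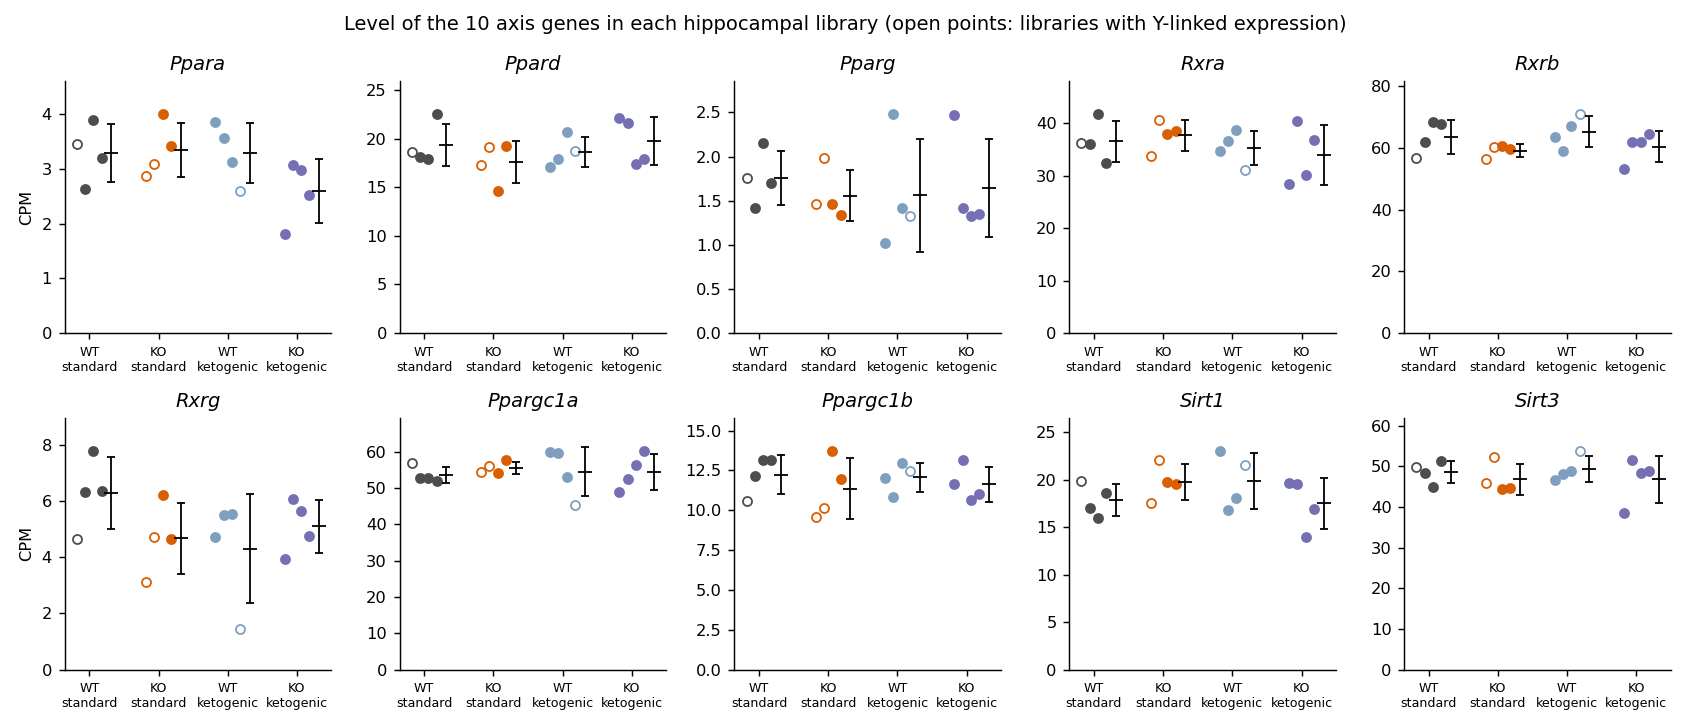
Level of each of the 10 genes in CPM (vertical axes, starting at 0) in each library, by genotype (WT, wild type; KO, kcna1 knockout) and diet. Each point is 1 library, open points are the 4 libraries with Ddx3y above 10 CPM, and the bars give the group mean ± SD (n = 4); the groups overlap in every panel, and Rxrg has 1 low library at 1.46 CPM.

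The genes differed far more from each other than between groups. Per kilobase of exon, Rxrb had the highest level, at 15.6 ± 1.21 CPM per kb (mean ± SD over 16 libraries). Ppargc1a followed at 8.28 ± 0.610 and Sirt3 at 8.02 ± 0.629 CPM per kb. These 2 were not separated by their spread, as Ppargc1a was above Sirt3 in 10 of 16 libraries. Rxra came next at 6.57 ± 0.719 CPM per kb, then Sirt1 at 3.52 ± 0.443 and Ppargc1b at 2.96 ± 0.313. Ppard, at 2.50 ± 0.275 CPM per kb, was above Rxrg, at 2.22 ± 0.640, in 11 of 16 libraries, so this pair also overlapped. Ppara at 0.816 ± 0.151 and Pparg at 0.552 ± 0.146 CPM per kb were the lowest, with Ppara above Pparg in 15 of 16 libraries. The exon length joins all annotated exons of a gene, and the annotation behind the counts is not given. The order and the family shares depend on that length. In mean CPM, Ppard was above Ppargc1b, at 18.8 against 11.8.

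Within each family 1 gene held most of the level per kilobase. Ppard, the most widely expressed PPAR, made up 64.7% ± 4.40 of the PPAR level (SD over 16 libraries), Ppara 21.2% ± 4.22 and Pparg 14.2% ± 3.01. Rxrb made up 64.1% ± 3.28 of the RXR level, Rxra 26.9% ± 2.17 and Rxrg 9.01% ± 2.23. Ppargc1a made up 73.6% ± 2.99 of the sum of both PGC-1 genes. The group means stayed near these shares: 62.5% to 68.0% for Ppard, 62.5% to 66.3% for Rxrb and 72.6% to 74.8% for Ppargc1a.

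Ppara encodes the receptor known for switching on fatty acid oxidation and ketone body synthesis in fasting liver. It lies at chr15:85734983-85802819 on the plus strand (GRCm38) and had 27 to 76 counts per library. In wild type on Standard Diet it stood at 3.46, 2.63, 3.90 and 3.20 CPM, and in knockout on Standard Diet at 2.87, 3.09, 4.00 and 3.43 CPM. On Ketogenic Diet the wild-type libraries had 3.86, 3.56, 3.12 and 2.60 CPM and the knockout libraries 1.81, 3.07, 2.98 and 2.53 CPM. The 3 other groups were alike, and the knockout on Ketogenic Diet reached lower while still overlapping each of them.

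The largest Ppara difference was that of the diet in the knockout, at -0.36 ± 0.20 on the log2 scale (adjusted p = 0.369 by edgeR, value ± SE). Its 95% interval ran from a fold of 0.581 to 1.04. Without the library KC913RR, the lowest of the 16, the log2 fold change was -0.23. In the wild type the diet difference was -0.0054 ± 0.20, with an interval of 0.750-fold to 1.32-fold. The genotype difference was 0.022 ± 0.20 on Standard Diet and -0.34 ± 0.20 on Ketogenic Diet, the latter -0.20 without KC913RR. The interaction was -0.36 ± 0.28 (adjusted p = 0.791), and -0.22 without KC913RR. In bulk tissue, fewer cells of a type and less RNA per cell cannot be told apart.

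Ppard, at chr17:28232700-28301474, encodes the PPAR found in most tissues. It ranged from 14.7 CPM in KC888LL to 22.5 CPM in KC900RLL, with group means of 17.6 to 19.8 CPM. Its largest pairwise difference was the diet in the knockout, at 0.17 ± 0.11 (adjusted p = 0.467; 0.957-fold to 1.32-fold), which was 0.091 without KC888LL and 0.10 without KC913RR. Its interaction was 0.22 ± 0.15 (adjusted p = 0.766), and 0.14 without KC900RLL or without KC888LL.

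Pparg, at chr6:115360951-115490399, encodes the receptor best known for driving fat cell formation. It was the least abundant member, with 19 to 46 counts and 1.02 to 2.48 CPM. Group means lay between 1.56 and 1.76 CPM, less apart than the libraries within a group. The limits of the 4 pairwise intervals ran from 0.585-fold to 1.60-fold.

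Rxrb and Rxra encode the broadly expressed RXRs. Rxrb, at chr17:34031812-34038399, was the most even RXR, from 53.0 to 71.0 CPM, with group means of 59.1 to 65.2 CPM. Its genotype differences were -0.11 ± 0.074 on Standard Diet and -0.11 ± 0.074 on Ketogenic Diet (adjusted p = 0.543 and 0.660), and all 4 pairwise intervals lay within 0.832-fold to 1.14-fold. Without KC897RR the first was -0.068, and without KC913RR the second was -0.053. Rxra, at chr2:27676440-27762957, ranged from 28.4 to 41.8 CPM. Its diet difference in the knockout was -0.15 ± 0.11 (adjusted p = 0.495), which moved to -0.077 without KC913RR and to -0.24 without KC916RRL.

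Rxrg encodes the RXR with the most restricted pattern, known in brain mainly from the striatum. It lies at chr1:167598384-167639623 and had the widest range, its highest library being 5.35 times its lowest. Its within-group coefficient of variation was 27.6%, where counting alone gives 10.9%, while that of Pparg was 29.0%, where counting gives 19.1%. In wild type on Standard Diet it had 4.65, 6.33, 7.79 and 6.34 CPM, and in knockout on Standard Diet 3.12, 4.72, 6.22 and 4.63 CPM. On Ketogenic Diet the wild-type libraries had 4.72, 5.51, 5.54 and 1.46 CPM and the knockout libraries 3.95, 6.06, 5.64 and 4.76 CPM. The wild type on Standard Diet sat highest and overlapped every other group, and 1 wild-type library on Ketogenic Diet (KC846L) was far below the rest.

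The diet difference of Rxrg in the wild type, -0.55 ± 0.31 (adjusted p = 0.951; 0.433-fold to 1.07-fold), was the largest pairwise difference of any member. It was -0.25 without KC846L. The genotype difference on Standard Diet was -0.42 ± 0.31 (adjusted p = 0.564), and -0.27 without KC872RL. On Ketogenic Diet it was 0.25 ± 0.31, and -0.045 without KC846L. The interaction was 0.68 ± 0.44 (adjusted p = 0.753), and 0.38 without KC846L. In each of the 3 groups that hold a library with Ddx3y above 10 CPM, the lowest Rxrg library was such a one (KC890RL, KC872RL and KC846L). The remaining such library, KC873RR, was at 4.72 CPM, above 2 others of its group. Sex is not given in the labels. In the fit without those 4 libraries, the diet difference of Rxrg in the knockout was -0.097, against 0.13 with them.

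Ppargc1a, at chr5:51454250-51567726 on the minus strand, was the steadiest member across groups. Its levels were 57.0, 52.9, 52.9 and 52.0 CPM in wild type and 54.3, 56.1, 54.1 and 57.6 CPM in knockout on Standard Diet. On Ketogenic Diet they were 60.0, 59.6, 53.2 and 45.5 CPM in wild type and 49.0, 52.4, 56.2 and 60.3 CPM in knockout. The 4 group means spanned only 53.7 to 55.5 CPM, while single libraries spread more widely on Ketogenic Diet. The diet difference was -0.025 ± 0.080 in the knockout and 0.023 ± 0.080 in the wild type, and all pairwise intervals lay within 0.875-fold to 1.16-fold.

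Ppargc1b, at chr18:61298136-61400431, encodes the coactivator that shares with PGC-1 alpha the control of mitochondrial genes. It ranged from 9.56 to 13.7 CPM, with group means of 11.4 to 12.2 CPM. Its pairwise log2 fold changes ran from -0.11 ± 0.12 for the genotype on Standard Diet to 0.032 ± 0.12 for the diet in the knockout. The former was -0.22 without KC888LL and -0.030 without KC872RL, and the latter 0.14 without KC888LL and -0.043 without KC872RL. The pairwise intervals lay within 0.780-fold to 1.22-fold.

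Sirt1, at chr10:63319005-63381704, showed opposite signs of the diet difference in the 2 genotypes, neither past the test. In wild type its levels were 19.9, 17.0, 16 and 18.6 CPM on Standard Diet and 23.1, 16.8, 18.03 and 21.5 CPM on Ketogenic Diet. In knockout they were 17.6, 22.1, 19.8 and 19.5 CPM on Standard Diet and 19.6, 19.5, 13.98 and 16.9 CPM on Ketogenic Diet. The diet difference was 0.15 ± 0.12 in the wild type and -0.18 ± 0.12 in the knockout. The former was 0.075 without KC842L, the highest library. The test of the difference between them, the interaction, gave -0.33 ± 0.17 (adjusted p = 0.700; 0.623-fold to 1.02-fold). Without KC934R, the lowest library, the diet difference in the knockout was -0.078, and without KC873RR it was -0.12.

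Sirt3, at chr7:140863666-140882309, ranged from 38.5 to 53.9 CPM, with group means of 46.8 to 49.4 CPM. The diet difference was -0.00082 ± 0.082 in the knockout and 0.022 ± 0.082 in the wild type. All 4 pairwise intervals lay within 0.841-fold to 1.14-fold. The level is uncertain, since 418 bases of its exons overlap Ric8a and 342 bases overlap Psmd13 on the opposite strand, and the use of strand in counting is not given. Sirt1 shares 65 exon bases with an antisense gene, Gm16145, which had 5 counts over all libraries.

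**Figure D2:**
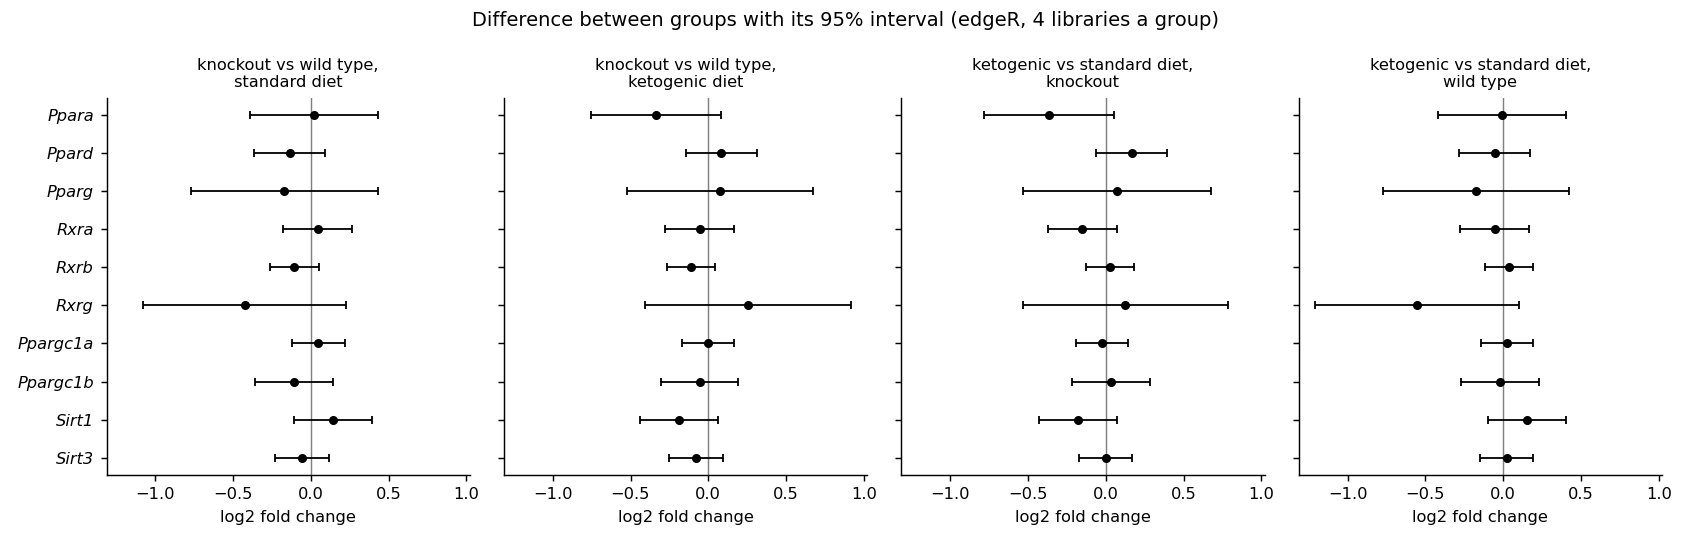
Log2 fold change (horizontal axis) of each of the 10 genes in the 4 pairwise comparisons, with points for the edgeR estimate and bars for its 95% interval (4 libraries a group). Every interval includes 0; those of Rxrg and Pparg are the widest, and those of Rxrb, Ppargc1a and Sirt3 the narrowest.

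Some libraries stood at an end of the range for several members. KC913RR, a knockout on Ketogenic Diet, was the lowest of all 16 libraries for 4 members, Ppara, Rxra, Rxrb and Sirt3, and had the highest Pparg of its group. The same library had 2018 CPM of Gfap and the lowest summed oligodendrocyte markers, 1930 CPM. KC872RL, with more Gfap at 2327 CPM, was lowest only for Ppargc1b, and KC873RR, at 1340 CPM, for no member. KC846L, a wild type on Ketogenic Diet, was lowest for Rxrg and Ppargc1a and highest for Rxrb and Sirt3. The part of these marker levels in the members' values was not tested.

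For each member, the 2 genes whose CPM followed it most closely over the 16 libraries were found by Spearman's rho among 15420 genes with a mean of at least 1 CPM. The libraries share group and depth differences, and rho describes these libraries only. Each value was picked as one of the highest among 15420 genes over 16 libraries, so a high rho alone does not show a link. The closest were Atm at 0.906 and Itgbl1 at 0.903 for Ppargc1a. For Ppard they were Ier5l at 0.900 and AB041806 at 0.794, and for Ppargc1b Pex6 at 0.894 and Emc10 at 0.885. Rxra was followed by Pnck at 0.882 and Aire at 0.862, Rxrb by Rnf145 at 0.874 and Hsf1 at 0.871, and Rxrg by Gm26833 at 0.835 and Lnx1 at 0.824. Ppara was followed by Col14a1 at 0.847 and Hdac9 at 0.812, and Pparg by Ddx10 at 0.774 and P3h2 at 0.771. Sirt3 was followed by Abhd14a at 0.868 and Robo3 at 0.856, and Sirt1 by Upf3b at 0.818 and Pthlh at 0.806. No member was among the 2 closest genes of another. The genes depend on the measure, since by Pearson's r only Col14a1, Aire, Itgbl1, Pex6 and Robo3 were again among the 2 closest.

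The promoters show where the receptors' own element is written. A PPAR with RXR binds a direct repeat spaced by 1 base, searched as 2 copies of AGGTCA in the same direction on both strands with up to 2 mismatches in RefSeq windows (GRCm38.p6) from 250 bases before to 50 bases after each start. It occurred in 3.86% of 32851 windows and in 1 of 15 windows of the 9 members that have windows, that of Rxra. The window of Ppara holds the exact motif of NRF1 (GCGCA followed by TGCGC), a factor that PGC-1 alpha coactivates, which 0.971% of windows hold. An estrogen-related receptor element (TCAAGGTCA) and a cAMP response element (TGACGTCA), also searched on both strands without mismatches, were in 0 of 15 member windows and in 0.423% and 1.79% of all windows. Capitals mark the matched letters, and the printed stretches lie at chr2:27709203-27709243 and chr15:85735731-85735768, both on the plus strand.
Rxra: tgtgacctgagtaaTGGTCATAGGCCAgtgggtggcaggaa
Ppara: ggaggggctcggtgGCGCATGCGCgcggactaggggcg

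Targets of PPARs were read as a list of 28 genes, 23 of them tested, that serve mainly fatty acid oxidation and lipid droplets. The edgeR test called 0 targets in each comparison, and DESeq2's test called 1, Cpt2, for the diet in the knockout, where it called 677 of all 17469 genes. For the diet in the knockout, 8 were above and 15 below 0, with a median log2 fold change of -0.071 against 0.0069 over all genes. At an unadjusted p under 0.05 stood 9 of 23 (39.1%, against 16.9% of all genes), 2 higher and 7 lower. In the wild type it was 1 of 23 (4.35%, against 5.46%), with a median of -0.030. For the genotype on Standard Diet, 20 were above and 3 below 0, with a median of 0.13 against 0.0044 over all genes, and 3 of 23, all higher, were at the unadjusted limit, against 14.3% of all genes. On Ketogenic Diet 13 were above and 10 below 0, and 3 of 23 were at that limit, against 9.22%. For the interaction it was 2 of 23 (8.70%, against 7.48%).

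Cpt2, the inner carnitine palmitoyltransferase of mitochondria, had the smallest p of the list. It stood at 5.51 ± 1.60 CPM in knockout on Standard Diet and 3.28 ± 0.312 CPM on Ketogenic Diet (SD, n = 4), a log2 fold change of -0.75 ± 0.21 (adjusted p = 0.0811). Hadhb, a subunit of the mitochondrial trifunctional protein, had 58.5 ± 5.05 and 49.9 ± 2.96 CPM in the same groups, a log2 fold change of -0.23 ± 0.067 (adjusted p = 0.103). Hadhb was 0.22 ± 0.067 higher in knockout than in wild type on Standard Diet without passing the test (adjusted p = 0.202).

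Some targets were picked after their values were seen, as the best-known readouts. Cpt1a, the gate of fatty acid entry into mitochondria, had a diet difference of -0.15 ± 0.096 in the knockout and -0.15 ± 0.096 in the wild type, and Pdk4, a brake on glucose oxidation, -0.58 ± 0.21 and -0.012 ± 0.21. Angptl4, a secreted lipase inhibitor, had 0.43 ± 0.25 and -0.16 ± 0.26. Ucp2, a mitochondrial carrier, had 0.46 ± 0.17 and 0.39 ± 0.18 and Plin2, a lipid droplet coat protein, -0.70 ± 0.22 and -0.13 ± 0.22. The smallest adjusted p among these 5 genes in either genotype was that of Plin2 in the knockout, 0.118. Some wild-type diet differences moved with 1 library left out. That of Angptl4 ran from -0.31 without KC894RLL to 0.062 without KC897RR. That of Pdk4 ran from -0.096 without KC894RLL to 0.094 without KC846L, and that of Plin2 from -0.25 without KC897RR to -0.0105 without KC900RLL.

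The knockout library KC888LL, with intermediate Kcna1, moved the target counts. Without it, 3 targets were called lower under the diet in the knockout: Cpt2 at -0.84 (adjusted p = 0.0266), Hadhb at -0.27 (0.0301) and Plin2 at -0.84 (0.0277). Hadhb was then also called higher in knockout than wild type on Standard Diet, at 0.26 (0.0365). Without it, 1096 of all genes were called for the diet in the knockout, against 202 with it, and 1016 for the genotype on Standard Diet, against 1 with it. Leaving out KC934R called Cat, the peroxisomal catalase, at -0.45 (0.0328), and leaving out KC935LL called Ucp2 at 0.62 (0.0392), which without KC913RR was 0.27 (0.442). The diet difference of Cpt1a in the knockout ran from -0.24 without KC893RL to -0.075 without KC872RL.

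Markers of other cells also differed between the knockout groups. For that diet comparison, edgeR called 1.16% of all genes, and 16.9% were at an unadjusted p under 0.05. All 8 oligodendrocyte markers were called lower on Ketogenic Diet, and their sum was 5032 to 5526 CPM on Standard Diet and 1930 to 3624 CPM on Ketogenic Diet. Of 5 blood markers, 4 were called lower (Hba-a1, Hbb-bs, Hbb-bt and Alas2), with a list median of -2.02 and sums of 65.8 to 113 and 17.4 to 32.5 CPM, which did not overlap. Of 5 thalamus markers, 1 was called lower by edgeR, Tcf7l2, and 2 by DESeq2, Tcf7l2 and Rora. All 5 were below 0 (median -0.59), 3 of them at an unadjusted p under 0.05, with overlapping sums of 83.6 to 164 and 59.1 to 155 CPM.

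Other marker lists had no gene called by edgeR in that comparison, where DESeq2 called 677 of all 17469 genes. At the unadjusted limit stood 16.9% of all genes. Of 8 microglia markers, 0 were called by edgeR, 6 by DESeq2, and 7 were lower at an unadjusted p under 0.05. Their sums were 269 to 544 CPM on Standard Diet, highest in KC872RL and KC873RR, and 240 to 258 CPM on Ketogenic Diet. Of 5 choroid plexus markers, 0 were called by either tool and 1 was at the unadjusted limit, with a median of -3.11 and sums of 43.1 to 540 and 31.7 to 48.9 CPM. Of 6 astrocyte markers, 0 were called by edgeR, 1 by DESeq2, and 2 were at the unadjusted limit, with overlapping sums of 3930 to 4965 and 3707 to 4355 CPM. Some lists of neurons went the other way. All 5 neuron markers were above 0, with 0 called by edgeR, 1 by DESeq2 and 2 at the unadjusted limit, and all 5 CA pyramidal markers were above 0 (median 0.35), with the same counts.

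For the genotype on Standard Diet, edgeR called 0 genes of these marker lists. Of all 17469 genes, 14.3% were at an unadjusted p under 0.05 there, and DESeq2 called 177. Reactive astrocyte markers were above 0 in 6 of 6 (median 1.37, 3 at the unadjusted limit, 0 called by DESeq2) and microglia markers in 8 of 8 (median 0.51, 6 at that limit, 1 called by DESeq2). Neuron markers were below 0 in 5 of 5 (median -0.16, 4 at that limit, 0 called by DESeq2), while markers of parvalbumin interneurons were above 0 in 5 of 5 (median 0.19, 2 at that limit, 0 called by DESeq2). DESeq2 also called the thalamus marker Tcf7l2 and the dentate granule marker C1ql2. Summed microglia markers were 544 CPM in both KC872RL and KC873RR, the knockout libraries with Ddx3y above 10 CPM. KC888LL and KC893RL had 269 and 280 CPM, within the wild-type range of 256 to 295 CPM. In the order KC872RL, KC873RR, KC888LL and KC893RL, summed reactive astrocyte markers were 2866, 1609, 430 and 764 CPM. Wild type had 366 to 483 CPM. The part of these markers in the target values of either comparison was not tested.

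**Figure D3:**
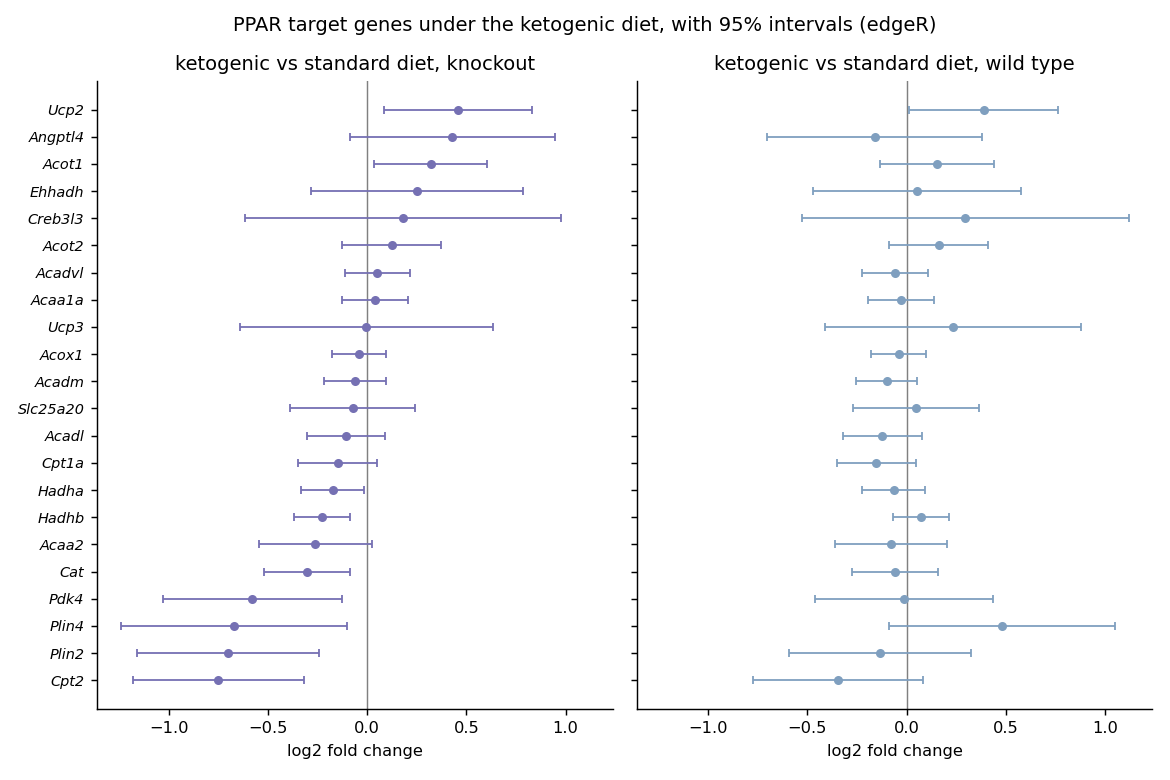
Log2 fold change (horizontal axes) of 22 of the 23 tested PPAR targets for Ketogenic against Standard Diet in the knockout (left) and the wild type (right), as points with 95% intervals, ordered by the knockout value. In the knockout, 9 intervals leave out 0 and Cpt2 is lowest at -0.75; in the wild type 1 does, that of Ucp2.

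The direct repeat was found in 5 of 21 target windows (23.8%, against 3.86% of all windows), which cover 20 genes. The matches of Cat, Plin2 and Ucp3, an uncoupling protein, are printed as the receptor's element in genes that the list names, with capitals for the match. The printed stretches, with 14 bases on each side of the match, lie at chr2:103485331-103485371 (minus strand), chr4:86670258-86670298 (minus strand) and chr7:100472926-100472966 (plus strand). The Plin2 match is to the reverse complement. The 2 other matches were in Slc25a20 and Creb3l3. A match describes the letters only. In the knockout, the diet difference was -0.30 ± 0.10 for Cat (adjusted p = 0.149), -0.70 ± 0.22 for Plin2 (0.118), -0.0032 ± 0.30 for Ucp3 (0.997), -0.071 ± 0.15 for Slc25a20 (0.856) and 0.18 ± 0.38 for Creb3l3 (0.856).
Cat: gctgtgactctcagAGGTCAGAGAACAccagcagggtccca
Plin2: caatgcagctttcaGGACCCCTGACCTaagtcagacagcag
Ucp3: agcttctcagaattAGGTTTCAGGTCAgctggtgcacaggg

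Genes that supply or break down PPAR ligands gave 0 calls by edgeR among 14 tested of 15. At an unadjusted p under 0.05 stood 2 genes for the genotype on Standard Diet, 3 for the genotype on Ketogenic Diet, 3 for the diet in the knockout, 2 for the diet in the wild type and 3 for the interaction, where 14.3%, 9.22%, 16.9%, 5.46% and 7.48% of all genes stood. DESeq2's test called 1, Naaa, for the diet in the knockout, among 677 of all genes. The list medians ran from -0.038 to 0.032 over the comparisons, against -0.00022 to 0.0069 over all genes. Naaa, which degrades the fatty acid amide palmitoylethanolamide, had 24.5 ± 3.81 CPM in knockout on Standard Diet and 17.2 ± 4.37 CPM on Ketogenic Diet, a log2 fold change of -0.51 ± 0.15 (adjusted p = 0.106). Acsl3, which activates long-chain fatty acids, was at 187 ± 3.65 CPM in wild type and 214 ± 21.6 CPM in knockout on Standard Diet, a difference of 0.20 ± 0.066 (adjusted p = 0.208). Without KC888LL, both passed the test for the diet in the knockout, Naaa at -0.61 (adjusted p = 0.0199) and Acsl3 at -0.22 (0.0407), and Acsl3, at -0.17 for that diet difference in all libraries, also passed it for the genotype on Standard Diet (0.25, 0.0244). Without KC872RL the diet difference of Acsl3 in the knockout was -0.11.

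Among other nuclear receptors that can pair with an RXR, 0 of 11 tested of 13 were called by edgeR or DESeq2 in each comparison. In that same order of comparisons, 3, 2, 1, 0 and 0 were at an unadjusted p under 0.05, against the same 14.3%, 9.22%, 16.9%, 5.46% and 7.48% of all genes, and the medians ran from -0.070 to 0.026. Nr4a1, an immediate early gene that neuronal activity induces, had 73.6 ± 8.71 CPM in wild type and 29.5 ± 10.4 CPM in knockout on Ketogenic Diet. The groups did not overlap, as for 3.98% of all genes, and its difference of -1.33 ± 0.34 (adjusted p = 0.395) did not pass the test. On Standard Diet it was -1.01 ± 0.34 (adjusted p = 0.231), and -1.52 (adjusted p = 0.00652) without KC888LL. Thrb, a thyroid hormone receptor, differed by -0.28 ± 0.10 for the diet in the knockout (adjusted p = 0.161).

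Coactivators and corepressors gave 0 calls by edgeR among 17, with 2, 1, 2, 2 and 0 at an unadjusted p under 0.05 in that order, against the same 14.3%, 9.22%, 16.9%, 5.46% and 7.48% of all genes, and medians from -0.052 to 0.055. DESeq2's test called 1, Kat2b, for the diet in the knockout, among 677 of all 17469 genes. Kat2b, an acetyltransferase, had a diet difference of -0.38 ± 0.094 in the knockout (adjusted p = 0.0560) and -0.27 ± 0.094 in the wild type (adjusted p = 0.781), and passed the test in the knockout without KC888LL (-0.44, adjusted p = 0.0114) and without KC935LL (-0.43, 0.0470). Ncoa3, a steroid receptor coactivator, was -0.20 ± 0.063 in knockout against wild type on Ketogenic Diet (adjusted p = 0.417).

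Factors through which PGC-1 acts on mitochondria gave 0 calls by edgeR or DESeq2 among 12, with 1, 0, 3, 1 and 0 at an unadjusted p under 0.05 in that order, against those shares of all genes, and medians from -0.11 to 0.056. Polg, the polymerase of mitochondrial DNA, differed by 0.23 ± 0.085 (adjusted p = 0.178) and Gabpb1, a subunit of the GABP factor, by 0.29 ± 0.11 (adjusted p = 0.192), both for the diet in the knockout, with Gabpb1 at 0.16 without KC913RR. Polg passed the test without KC888LL (0.31, adjusted p = 0.0349). Of 6 neuronal genes that depend on PGC-1 alpha in interneurons, 0 were called by either tool, and 2, 0, 0, 2 and 1 were at an unadjusted p under 0.05 in that order, against those shares of all genes, with medians from -0.046 to 0.032. Syt2, a synaptic calcium sensor, differed by 0.37 ± 0.14 (adjusted p = 0.245) and Atp2a2, a calcium pump, by -0.17 ± 0.075 (adjusted p = 0.317) in knockout against wild type on Standard Diet, Atp2a2 with -0.25 (0.0466) without KC888LL and -0.096 (0.647) without KC873RR.

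The 1 call in these lists came from the sirtuins and NAD enzymes, where 1 of 17 was called by edgeR: Sirt2, a mainly cytoplasmic deacetylase known to be abundant in oligodendrocytes. At an unadjusted p under 0.05 stood 4, 0, 3, 1 and 2 genes of the list in that order, against 14.3%, 9.22%, 16.9%, 5.46% and 7.48% of all genes, and its medians ran from -0.061 to 0.038. For the diet in the knockout, 1.16% of all genes were called. Sirt2 lies at chr7:28766735-28788661 and had 118, 117, 112 and 110 CPM in wild type and 196, 133, 116 and 129 CPM in knockout on Standard Diet. On Ketogenic Diet it had 102, 102, 111 and 106 CPM in wild type and 88.2, 96.5, 95.5 and 96.9 CPM in knockout. The knockout groups did not overlap, as for 6.39% of all genes, and KC872RL stood highest of all libraries. KC872RL also had the highest Gfap, 2327 CPM, and 503 CPM of summed oligodendrocyte precursor markers (4 genes), against 148 to 236 CPM in the other libraries.

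Sirt2 fell by 0.61 on the log2 scale under the diet in the knockout (SE 0.11, adjusted p = 0.0191). In the wild type the difference was -0.12 ± 0.11 (adjusted p = 0.997), and the interaction was -0.49 ± 0.16 (adjusted p = 0.654), so the diet effects were not shown to differ. The interaction was -0.30 without KC872RL, -0.26 without the 4 libraries with Ddx3y above 10 CPM and -0.32 with Xist as a covariate. The call held with DESeq2's test (adjusted p = 0.000133), which also called Sirt6, a nuclear deacetylase, and without KC872RL (-0.41, adjusted p = 0.00704). It was lost without KC913RR (-0.58, adjusted p = 0.0717), without the 4 libraries with Ddx3y above 10 CPM (-0.38, 0.123), with Xist as a covariate (-0.46, 0.123) and with only the compared groups in the fit (-0.61, 0.195). The genotype difference of Sirt2 on Standard Diet, 0.33 ± 0.11 (adjusted p = 0.225 by edgeR), did not pass the test. It was 0.14 (0.665) without KC872RL and 0.11 (0.999) without the 4 libraries with Ddx3y above 10 CPM. Without KC888LL, Sirt2 was called higher in knockout than in wild type on Standard Diet (0.42, adjusted p = 0.0281). The same setting called Parp1, a nuclear enzyme that consumes NAD, at -0.40 for that genotype comparison (0.0115) and at 0.37 for the diet in the knockout (0.0179), where all libraries gave -0.27 ± 0.11 (0.270) and 0.24 ± 0.11 (0.267).

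The called oligodendrocyte markers (8 of 8, median log2 fold change -0.92), blood markers (4 of 5, median -2.02) and thalamus marker Tcf7l2 were lower in the same comparison as Sirt2. There, 7 of 8 microglia markers were lower at an unadjusted p under 0.05, while 16.9% of all genes were at that limit. In the wild type 0 of 8 oligodendrocyte markers were called by edgeR or DESeq2, and their sum was 4045 to 6257 CPM on Standard Diet and 3341 to 4232 CPM on Ketogenic Diet. At an unadjusted p under 0.05 all 8 were lower there too, while 5.46% of all genes were at that limit. The part of these markers in the Sirt2 value was not tested.

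**Figure D4:**
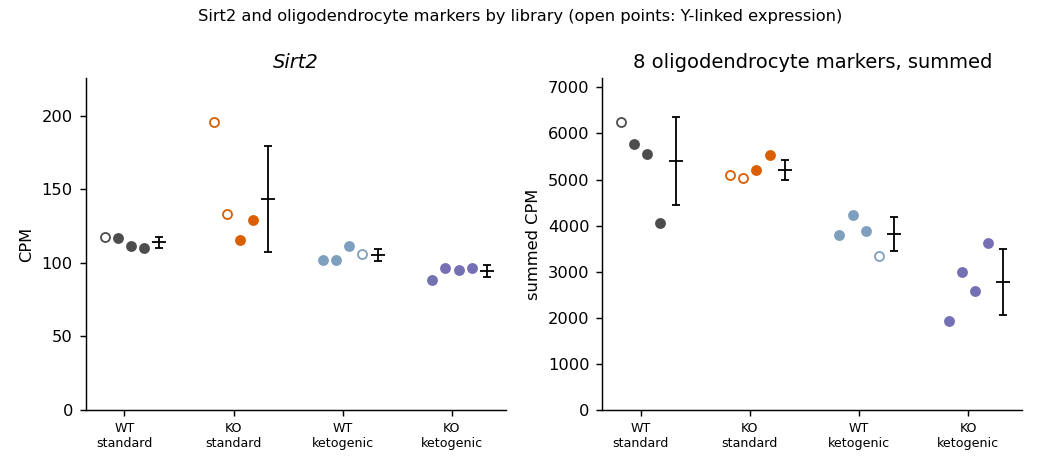
CPM of Sirt2 (left) and summed CPM of 8 oligodendrocyte markers (right) in each library by genotype and diet, with axes from 0. Points are libraries, open points those with Ddx3y above 10 CPM, and bars the group mean ± SD (n = 4); both means are lowest in the knockout on Ketogenic Diet, and the highest Sirt2 library, at 196 CPM, does not have the highest marker sum.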

How the data were processed

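Hippocampal RNA in 16 libraries was analysed from a deposited table of raw counts per gene, with 1 column per library. The submitters' processing notes name mm10 and DESeq2 without a role, and the aligner, the counter, the annotation and the use of strand are not given in the sources used here. Columns give a tag, genotype and diet, which set the groups.

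From the counts, edgeR 4.0.16 in R 4.3.3 was run on all 16 libraries with TMM factors, filterByExpr by group, 1 coefficient per group and a robust quasi-likelihood F test with 12 residual degrees of freedom. Intervals are 95%. CPM used TMM-scaled library sizes. The fit was tested on simulated data, with the outcome not reported here. Positions and exon lengths are from GENCODE M21 (GRCm38), which held 48970 of 49315 identifiers. The members and lists were chosen with earlier results of these data known. From each list were named the called genes, or otherwise the 2 of smallest p.

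Alternatives were DESeq2 1.42.0 (its size factors, or its test), no filter on low counts, only the groups compared, Xist as a covariate, dropping libraries with Ddx3y at 10 CPM or more, and leaving out each library. Calls and values in the pathway and marker lists without a library or with DESeq2, and the Sirt2 alternatives, were added after seeing the data. The values of 1 target gene are not reported here.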

Additional observations from a re-analysis of the deposited data

Results flagged for a closer look

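The 40 sets of 1 gene in 1 group were each examined on the linear and on the log2 scale. Marks went to libraries whose gap to the nearest other was too large a part of the group's range. The limit was Dixon's 95% criterion for 4 samples. Chance marks about 1 in 20 groups on each scale. There were 5 such marks, on 4 sets, which is near that rate. Ppard in KC900RLL, a wild type on Standard Diet, was at 22.5 CPM against 17.9 to 18.7 CPM in the other 3, on the linear scale only. Pparg in KC913RR, a knockout on Ketogenic Diet, was at 2.48 CPM against 1.33 to 1.42 CPM, on both the linear and the log2 scale, from 37 counts. Rxrg in KC846L, a wild type on Ketogenic Diet, was at 1.46 CPM against 4.72 to 5.54 CPM, on the log2 scale only. Sirt3 in KC873RR, a knockout on Standard Diet, was at 52.4 CPM against 44.5 to 45.8 CPM, on the linear scale only and barely past the criterion.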

How the results depend on the processing

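No member was called under the settings listed here, and the smallest adjusted p was 0.259, for Rxra and the diet in the knockout without KC916RRL. Signs changed for 2 of 50 values with DESeq2's size factors, 2 with no filter, 2 with DESeq2's test, 7 with the Xist covariate, 11 without the libraries with Ddx3y at 10 CPM or more, 1 of 40 with only the compared groups, and 53 of 480 with 1 library left out. Causes were not tested. With DESeq2's size factors, the changed values were Ppargc1a 0.0012 for the genotype on Ketogenic Diet and Sirt3 0.0030 for the diet in the knockout. With DESeq2's test, the changed values were Ppargc1a 0.0017 for the genotype on Ketogenic Diet and Sirt3 0.0030 for the diet in the knockout. With no filter, the changed values were Sirt3 0.0021 for the diet in the knockout and Ppara 0.0029 for the diet in the wild type. With only the compared groups, the changed values were Ppargc1a 0.00056 for the genotype on Ketogenic Diet. With the Xist covariate, the changed values were Rxrg -0.34, Ppargc1b -0.083 and Sirt3 0.074 for the diet in the knockout, Ppara 0.0091 and Ppargc1b 0.0065 for the diet in the wild type and Ppargc1b -0.089 and Sirt3 0.066 for the interaction. Without the libraries with Ddx3y at 10 CPM or more, the changed values were Ppargc1b 0.0080 for the genotype on Standard Diet, Rxrg -0.040 for the genotype on Ketogenic Diet, Rxrg -0.10, Ppargc1b -0.15 and Sirt3 0.069 for the diet in the knockout, Ppara 0.11, Rxrb -0.066 and Sirt3 -0.016 for the diet in the wild type and Rxrb 0.074, Ppargc1b -0.044 and Sirt3 0.086 for the interaction. Leaving out 1 library gave, for the genotype on Standard Diet, Ppara -0.082 to 0.11 and Rxra -0.0096 to 0.11. Leaving out 1 library gave, for the genotype on Ketogenic Diet, Pparg -0.18 to 0.39, Rxra -0.15 to 0.022, Rxrg -0.045 to 0.40, Ppargc1a -0.082 to 0.050 and Sirt3 -0.13 to 0.0063. Leaving out 1 library gave, for the diet in the knockout, Pparg -0.19 to 0.21, Rxrb -0.0026 to 0.086, Rxrg -0.028 to 0.30, Ppargc1a -0.077 to 0.022, Ppargc1b -0.043 to 0.14 and Sirt3 -0.048 to 0.080. Leaving out 1 library gave, for the diet in the wild type, Ppara -0.10 to 0.10, Ppard -0.11 to 0.029, Rxra -0.11 to 0.014, Rxrb -0.016 to 0.079, Ppargc1a -0.024 to 0.10, Ppargc1b -0.086 to 0.028 and Sirt3 -0.022 to 0.049. Leaving out 1 library gave, for the interaction, Pparg -0.015 to 0.56, Rxrb -0.050 to 0.050, Ppargc1a -0.13 to 0.00084, Ppargc1b -0.021 to 0.16 and Sirt3 -0.072 to 0.059. No paired analysis was possible because the columns of the table carry no replicate numbers. The deposited counts limit the members at the low end, Pparg and Ppara, where 19 to 76 counts a library leave wide intervals. Settings changed the number of all genes called. For the diet in the knockout it was 202, and 677 with DESeq2's test, 3 without the libraries with Ddx3y at 10 CPM or more and 1096 without KC888LL. At such numbers out of 17469 genes, no call among 10 members is near the background. It does not show that the members depend less on the settings.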
